A study of Mus musculus with 2 samples.

Results

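Fatty acid uptake, activation and mitochondrial beta-oxidation were described in hearts of mouse embryos at day 15.5 through 37 genes, taken by their GENCODE M21 symbols from the 43346 Ensembl genes of the gene tables. All 37 were found in both libraries. The genes were chosen by their known role in the pathway and not by their level, though with earlier results of these data known. RNA-seq was available as 2 libraries of 1 group, strain B6NCrl with males and females mixed, prepared from a pool of 78 hearts for replicate 1 and a pool of 62 hearts for replicate 2. The embryos carried no labelled allele and received no labelled treatment, and the pools hide the spread between single embryos. Whole hearts were used, so each level mixes muscle cells with vessel, connective tissue and blood cells.

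A fatty acid reaches the heart muscle cell after lipoprotein lipase frees it at the vessel wall. It then crosses the membrane, is carried by small binding proteins, is joined to coenzyme A and enters the mitochondrion as an acylcarnitine. Inside the matrix, repeated rounds of dehydrogenation, hydration, dehydrogenation and thiolysis shorten the chain, and the electrons pass through the electron transfer flavoprotein to the respiratory chain. Malonyl-CoA, made by the acetyl-CoA carboxylases, inhibits the entry step. The fetal heart is known for its reliance on glucose and lactate, and the postnatal heart for its use of fatty acids.

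Gene levels are given as TPM, a relative transcript abundance corrected for transcript length, as deposited for each library. The samples hold no contrast of conditions, and with n = 2 the smallest p of an exact two-sided sign-flip test is 0.5. No test was therefore run, and a difference between genes is read against the spread of the 2 libraries. Replicate 1 had 41883313 expected counts and replicate 2 had 39697992, and 1 read on a kilobase of effective length was worth 0.0308 and 0.0345 TPM. All 12 cardiomyocyte markers stood above the detection level of 1 TPM in both libraries. Markers of organs next to the heart differed between the pools. The summed level of 8 liver markers was 53.1 TPM in replicate 1 and 244 TPM in replicate 2, that of 6 thymus markers 11.1 and 108 TPM, that of 5 lung epithelium markers 129 and 319 TPM, and that of 7 neural markers 7.90 and 40.1 TPM.

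Of the 37 genes, 35 reached 1 TPM in both libraries, where 58.2% of 21474 protein-coding genes did. The exceptions were Acsl6 and Ucp3. The median over the 37 genes was 104 TPM in replicate 1 and 108 TPM in replicate 2. For comparison, the median of the 12491 detected protein-coding genes was 14.5 and 17.1 TPM. Summed over the 37 genes, their reads made up 0.794% of gene counts in the first pool and 0.650% in the second. Counts were high enough that 35 of them had at least 100 reads in both libraries and 31 had at least 1000.

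**Figure D1:**
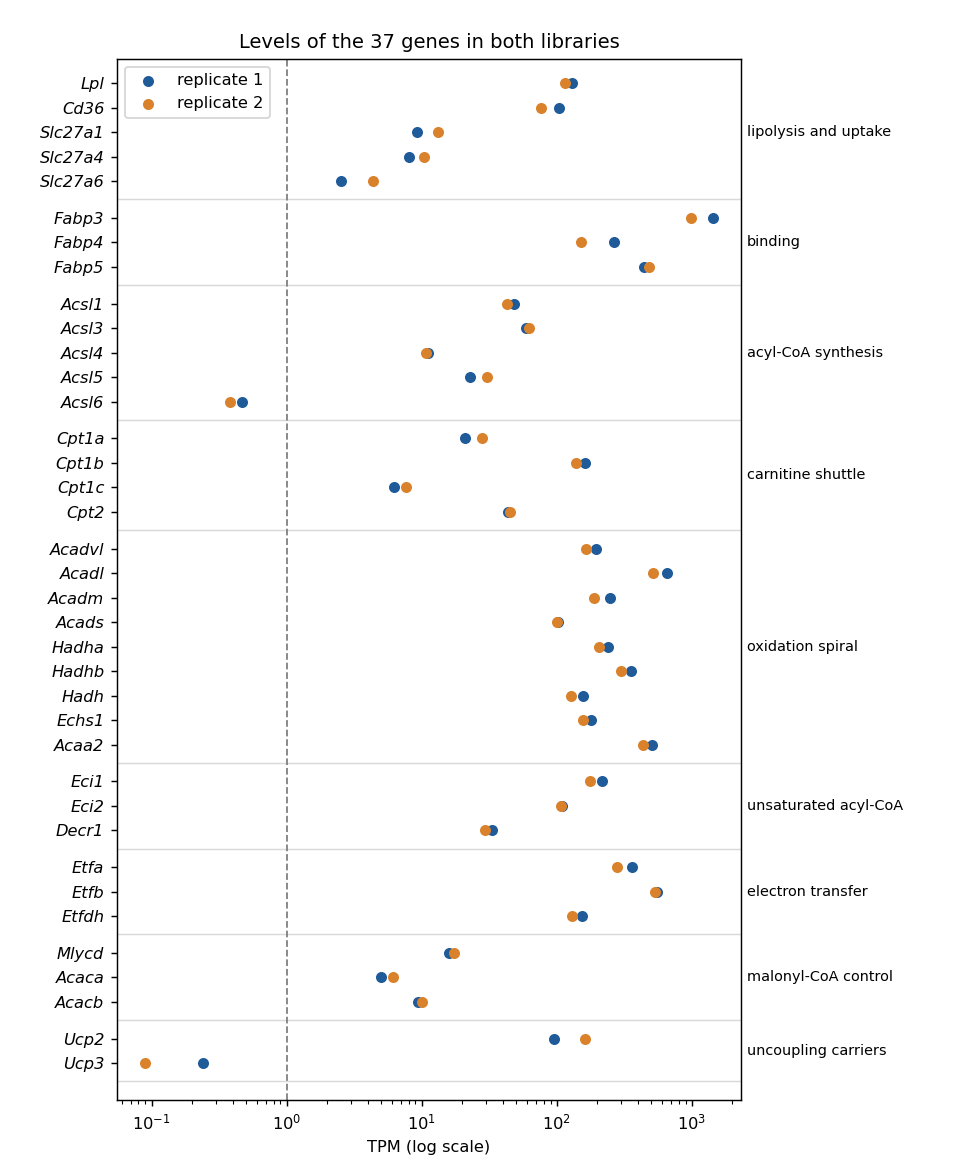
Level of each of the 37 genes in TPM on a log scale, grouped by step, with 1 point per library and a dashed line at the detection level of 1 TPM. The genes of the oxidation spiral sit between 99.9 and 658 TPM, while Acsl6 and Ucp3 lie under 1 TPM in both libraries.

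Regulatory sequence outside the annotated transcripts is shown for a pair of loci because they hold genes of the oxidation spiral described in detail further on. One is the whole interval of 85 bases between Hadha and Hadhb, which encode both subunits of the mitochondrial trifunctional protein and are read in opposite directions from it (chr5:30155163-30155247, plus strand, mm10). Capitals mark the GC box letters GGGCGG. The other is the 250 bases before the RefSeq start of Acadm, the medium-chain acyl-CoA dehydrogenase (chr3:153944644-153944893, minus strand), with capitals on the letters AAGGTCA, here on the opposite strand, a sequence read by the estrogen-related receptors.
Hadha-Hadhb: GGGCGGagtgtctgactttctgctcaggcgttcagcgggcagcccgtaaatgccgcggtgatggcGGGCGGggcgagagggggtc
Acadm: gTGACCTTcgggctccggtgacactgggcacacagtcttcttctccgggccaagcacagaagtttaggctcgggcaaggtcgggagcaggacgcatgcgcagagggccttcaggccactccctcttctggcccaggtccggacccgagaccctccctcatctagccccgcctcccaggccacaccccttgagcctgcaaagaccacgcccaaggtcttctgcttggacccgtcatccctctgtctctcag

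RefSeq promoter windows (GRCm38.p6, 250 bases before to 50 after each start) matched 30 of the 37 genes, in 35 windows. Acaa2, Cpt1b, Decr1, Fabp4, Fabp5, Lpl and Slc27a6 were not matched. Each motif was searched on both strands. GGGCGG was in 24 of the 35 windows (68.6%), and in 35.7% of all 32851 windows. CCAAT was in 17 of 35 (48.6%, against 37.4% of all). TATAAA was in the window of Acacb alone (2.86%, against 13.6%). AAGGTCA was in those of Acacb, Acadm and Acsl6 (8.57%, against 4.72%), and DR1, the letters AGGTCA repeated with any 1 base between them, as in a PPAR site, in none of the 35 (0.0396% of all). The 32851 windows were not limited to detected genes, so these shares are not matched for level. A match is a run of letters and not a shown binding site. The exact DR1 letters are so rare that their absence from 35 windows says nothing about PPAR sites in these genes.

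Lipolysis and uptake were led by Lpl and Cd36, with the transport proteins an order of magnitude below. Lpl, lipoprotein lipase (chromosome 8, 68880491 to 68907448), stood at 131 TPM in replicate 1 and 115 TPM in replicate 2. Cd36, the membrane receptor for long-chain fatty acids (chromosome 5, 17781690 to 17888801), stood at 104 and 76.0 TPM. The levels of these genes did not overlap between the libraries, with Lpl 1.255-fold above Cd36 in replicate 1 and 1.51-fold in replicate 2. That order depends on what is counted as Lpl. The leading Lpl transcript, Lpl-203 with 1900 bases, is annotated as subject to nonsense-mediated decay and held 56.7% and 62.6% of the gene's TPM. The protein-coding Lpl-201 of 4115 bases held 55.5 and 41.8 TPM, under the level of Cd36, whose annotated transcripts are all protein-coding.

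The fatty acid transport proteins, which combine uptake with acyl-CoA synthetase activity, were low. Slc27a1 (FATP1) stood at 9.22 and 13.3 TPM, Slc27a4 (FATP4) at 8.05 and 10.4 TPM, and Slc27a6 (FATP6) at 2.54 and 4.35 TPM. Slc27a1 held 46.5% and 47.4% of their summed level, Slc27a4 40.6% and 37.1%, and Slc27a6 12.8% and 15.5%. The ranges of Slc27a1 and Slc27a4 overlapped between the libraries, so their order lies within the spread. In raw counts, which favour long transcripts, Slc27a4 was ahead. Slc27a6, known as the cardiac form in human, was the lowest of these in both libraries.

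Binding proteins included the most abundant gene of the pathway. Fabp3, the heart-type binding protein (chromosome 4, 130308595 to 130315463), stood at 1428 TPM in replicate 1 and 988 TPM in replicate 2, or 1208 ± 311 TPM (SD, n = 2), above 99.4% of detected protein-coding genes on average. Fabp5, the epidermal type, stood at 442 and 482 TPM. Fabp4, known from adipocytes, capillary endothelium and macrophages, stood at 264 and 153 TPM. The order Fabp3, Fabp5, Fabp4 held in both libraries with no overlap.

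Of all the shares computed for the 10 sets, that of Fabp5 differed most between the pools (25.2% ± 6.39, SD, n = 2). Fabp3 held 66.9% of their TPM in replicate 1 and 60.9% in replicate 2, Fabp5 20.7% and 29.7%, and Fabp4 12.4% and 9.40%. Adipocyte markers were nearly absent. Plin1, Cidec, Lep and Cfd were listed at 0 in both libraries, and the 6 markers summed to 0.11 and 0.22 TPM. Endothelial markers summed to 380 and 443 TPM and macrophage markers to 154 and 226 TPM. On scaled counts, 4 of 8 endothelial markers and none of 7 macrophage markers were lower in replicate 2. The endothelial markers had a median log2 ratio of 0.01 and a lowest of -0.23. Gpihbp1, a capillary gene from the list of lipase partners and not one of these markers, had -0.44. The part of these cell types in the level of Fabp4 was not tested. Fabp5 and Fabp4 are neighbours on chromosome 3, 187 kilobases apart, and the reads of Fabp3 and Fabp5 were in part shared out with other genes.

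Acyl-CoA synthetases, which trap fatty acids as CoA esters, were spread over several paralogs. Acsl3, known from the endoplasmic reticulum and lipid droplets, stood at 59.1 and 61.9 TPM. Acsl1, the main form of the adult heart, stood at 48.1 and 43.0 TPM. Acsl5 followed at 23.0 and 30.3 TPM and Acsl4, which prefers arachidonate, at 11.2 and 10.8 TPM. No ranges of neighbours in this order overlapped.

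Acsl3 thus held 41.7% and 42.3% of the set and Acsl1 33.9% and 29.4%, while Acsl5 held 16.2% and 20.7%. Acsl6, the form of brain and testis, stood at 0.47 and 0.38 TPM from 21 and 27 reads. As a share of the reads of the set this was 0.133% (95% Wilson interval 0.0868 to 0.203) and 0.195% (0.134 to 0.284), for counting error only. The lead of Acsl3 over Acsl1 was small, 1.23-fold and 1.44-fold, and in raw counts of replicate 1 they held 37.6% and 36.7%. Acsl3 also showed a retained-intron transcript, Acsl3-207, at 0 TPM in replicate 1 and 7.62 TPM in replicate 2.

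The carnitine shuttle was led by the muscle form of its entry enzyme. Cpt1b (chromosome 15, 89416405 to 89425863) stood at 161 and 139 TPM (150.0 ± 16.1, SD, n = 2), Cpt1a, the liver form, at 20.9 and 28.1 TPM, and Cpt1c, the brain form, at 6.29 and 7.72 TPM. Cpt1b held 85.6% of the set in replicate 1 and 79.5% in replicate 2, Cpt1a 11.1% and 16.1%, and Cpt1c 3.34% and 4.42%. The groups did not overlap. The higher share of Cpt1a was in the library with the higher liver markers, and their part in it was not tested.

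Cpt2, which re-forms the acyl-CoA on the matrix side and has no paralog in the set, stood at 43.6 and 45.1 TPM, so that Cpt1b exceeded it 3.70-fold and 3.07-fold. Chkb, a choline kinase gene, ends 496 bases upstream of Cpt1b on the same strand and stood at 61.5 and 60.5 TPM. GENCODE M21 holds a read-through gene over both, Gm44502, which was not used here, so reads of such transcripts cannot be told apart from those of Cpt1b.

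**Figure D2:**
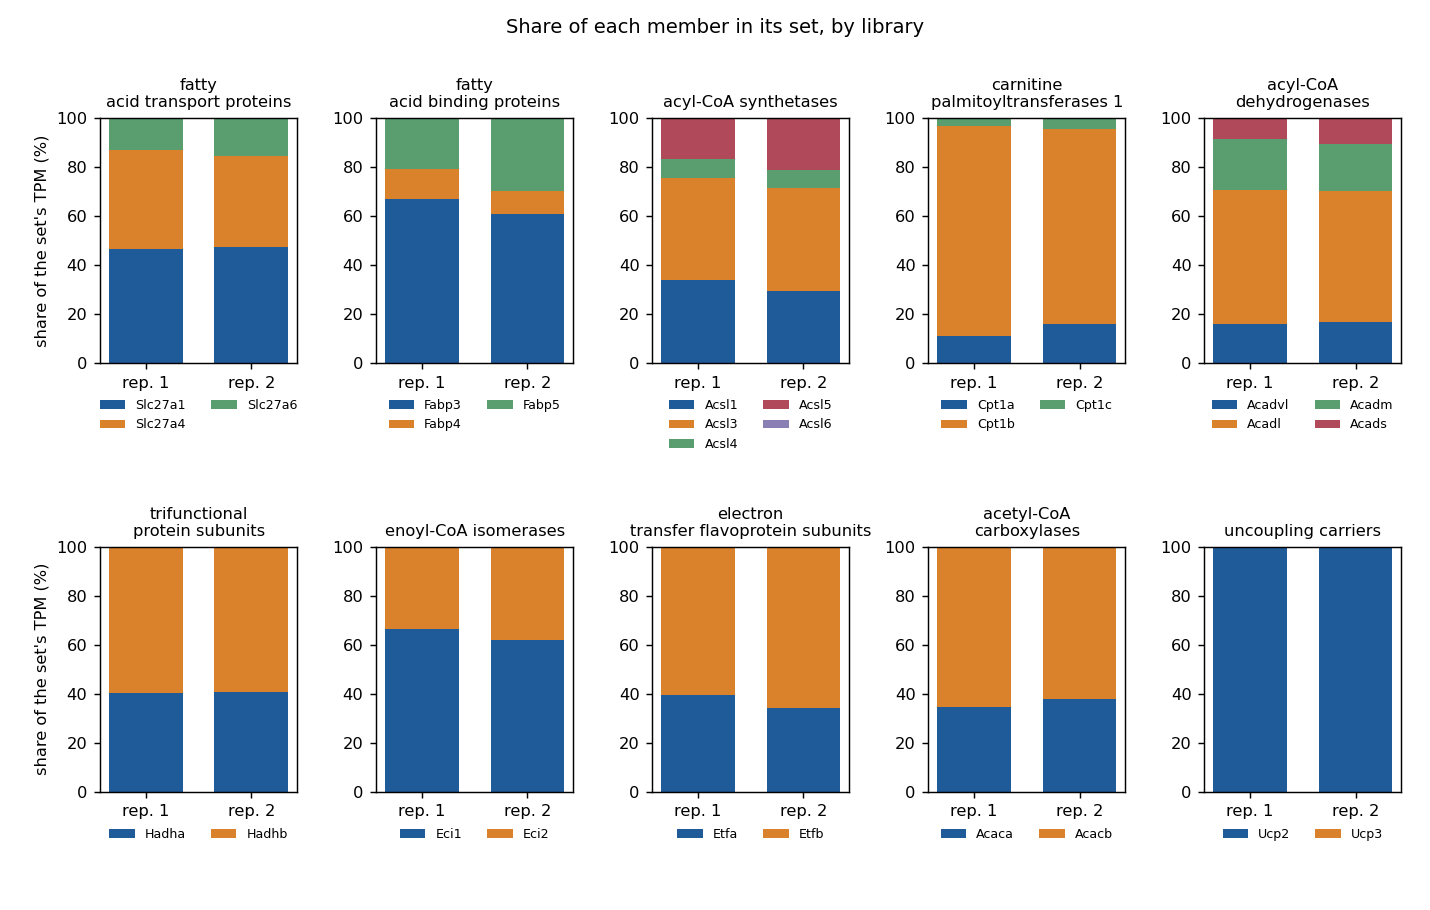
Share of each gene in the summed TPM of its set, in percent, with 1 bar per library and 1 panel for each of 10 sets of paralogs or subunits. Cpt1b holds 85.6% and 79.5% of its set and Acadl 54.7% and 53.4%, while the acyl-CoA synthetases are split among Acsl3, Acsl1, Acsl5 and Acsl4.

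All 9 genes of the oxidation spiral were abundant. Acadl, the long-chain acyl-CoA dehydrogenase (chromosome 1, 66830839 to 66863277), was highest at 658 TPM in replicate 1 and 519 TPM in replicate 2 (588 ± 98.7, SD, n = 2). Acadm stood at 248 and 188 TPM, Acadvl, the very-long-chain enzyme of the inner membrane, at 194 and 164 TPM, and Acads, the short-chain enzyme, at 102 and 99.9 TPM. Acadl lay above and Acads below the other dehydrogenases with no overlap, while the ranges of Acadm and Acadvl overlapped.

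The make-up of the dehydrogenases was close to the same in the pools. Acadl held 54.7% and 53.4% of their TPM, Acadm 20.7% and 19.4%, Acadvl 16.2% and 16.9%, and Acads 8.45% and 10.3%. In mouse, unlike human, the long-chain enzyme is known to carry much of the oxidation of long chains in heart and liver. Acadl exceeded Acadvl 3.39-fold and 3.16-fold.

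The trifunctional protein carries out the later reactions on long chains at the inner membrane. Hadhb, its thiolase subunit, stood at 353 and 299 TPM and Hadha, its hydratase and dehydrogenase subunit, at 239 and 207 TPM. The ratio was 1.48-fold and 1.45-fold, a log2 ratio of 0.55 ± 0.02 (SD, n = 2). Of the 21 ratios computed, only Mlycd over Acacb had as narrow a spread, at 0.77 ± 0.02. Hadha and Hadhb share the 85-base interval printed above, and its part in their ratio was not tested. Most of the Hadha level was in transcripts that M21 does not annotate as protein-coding. Hadha-201 of 2554 bases and Hadha-204 of 323 bases, both called processed transcripts, held 57.1% and 51.9%, and 27.2% and 28.4%. The protein-coding Hadha-205 held 14.1% and 17.9%, so the subunit ratio depends on the annotation.

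Matrix enzymes complete the spiral. Acaa2, the matrix thiolase, stood at 512 and 435 TPM, Echs1, the short-chain hydratase, at 179 and 157 TPM, and Hadh, the short-chain hydroxyacyl-CoA dehydrogenase, at 156 and 128 TPM. Acaa2 was second to Acadl in the spiral, and the ranges of Echs1 and Hadh did not overlap, though the gap between them was small. Each had 1 transcript with over 98% of its TPM in both libraries.

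Unsaturated fatty acids need auxiliary enzymes that shift or remove double bonds. The isomerase Eci1 stood at 218 and 177 TPM and Eci2, found in mitochondria and peroxisomes, at 110 and 108 TPM, so that Eci1 held 66.5% and 62.0% of the pair. Decr1, the dienoyl-CoA reductase, was the lowest of the 15 genes of mitochondrial oxidation at 33.4 and 29.7 TPM. From Decr1 to Acadl the mean levels of these 15 genes spanned 18.7-fold.

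The electron transfer flavoprotein takes electrons from all the acyl-CoA dehydrogenases. Its beta subunit gene Etfb stood at 550 and 535 TPM and the alpha subunit gene Etfa at 360 and 278 TPM, a ratio of 1.53-fold and 1.92-fold. Etfdh, which passes the electrons to ubiquinone, stood at 155 and 130 TPM. The groups did not overlap, and the subunits of this 1:1 dimer were less evenly matched in replicate 2. In raw counts Etfa was ahead in replicate 1, with 52.1% of the reads of the pair, and behind in replicate 2, with 46.2%.

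Genes that set malonyl-CoA were low. Mlycd, malonyl-CoA decarboxylase, stood at 15.8 and 17.4 TPM. Acacb, the carboxylase at the mitochondrial surface, stood at 9.36 and 10.1 TPM and Acaca, the cytosolic carboxylase of fatty acid synthesis, at 4.97 and 6.16 TPM. The order Mlycd, Acacb, Acaca held with no overlap, and Acacb held 65.3% and 62.0% of the carboxylases. These long mRNAs are hard to quantify. Acaca-206, a transcript of 431 bases against 9026 for the leading Acaca-201, took 31.2% and 20.2% of the Acaca level, and the retained-intron transcript Acacb-204 took 24.6% and 21.96% of the Acacb level.

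The uncoupling carriers differed most within a set. Ucp2, widely expressed and abundant in lymphoid and myeloid cells, stood at 96.2 TPM in replicate 1 and 163 TPM in replicate 2 (130 ± 47.4, SD, n = 2). Ucp3, the muscle form, which is known to follow fatty acid use in adult muscle, stood at 0.24 and 0.09 TPM, from 15 and 3 reads. Ucp3 held 0.466% (95% Wilson interval 0.283 to 0.768) and 0.0582% (0.0198 to 0.171) of the reads of the pair, for counting error only. The genes are neighbours on chromosome 7, 6904 bases apart and read in the same direction.

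Transcript use differed among the genes. In 22 of the 37, 1 transcript held over 90% of the TPM in both libraries. How many detected protein-coding genes do so was not computed, so this count is not read as particular to the pathway. In 9 the leading transcript averaged under 60%, where 28% of detected protein-coding genes did: Lpl, Cd36, Acsl4, Acsl6, Hadha, Eci2, Acaca, Acacb and Ucp2. In 2 of these, Lpl and Hadha, the leading transcript was not protein-coding, where 6.42% of detected protein-coding genes with an annotated leading transcript had such a one. Types are those of M21 and may differ from those of M4, with which the files were made, so the results on coding shares of Lpl and Hadha rest on the later annotation. Both shares of the pathway are close to those of genes at large.

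The split of Ucp2 differed between the pools. The short protein-coding Ucp2-209 of 743 bases held 42.7% and 29.8%, and the processed transcript Ucp2-208 of 464 bases held 30.2% and 35.5%. Cd36 and Eci2 divided their level among protein-coding transcripts, with Cd36-204 at 49.6% and 45.0% and Eci2-211 at 38.2% and 37.6%. For 28 of the 37 genes the expected counts were whole numbers in both libraries (within 0.005), as they are when no read was shared out with another gene. Opposite-strand genes overlap some of the 37, with whole counts or not, and no source used here says if reads were counted by strand. Zdhhc6, at 36.1 and 43.0 TPM, overlaps 26430 bases of Acsl5, and Dvl2, at 14.4 and 20.4 TPM, overlaps 2119 bases of Acadvl, which leaves part of those levels uncertain.

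**Figure D3:**
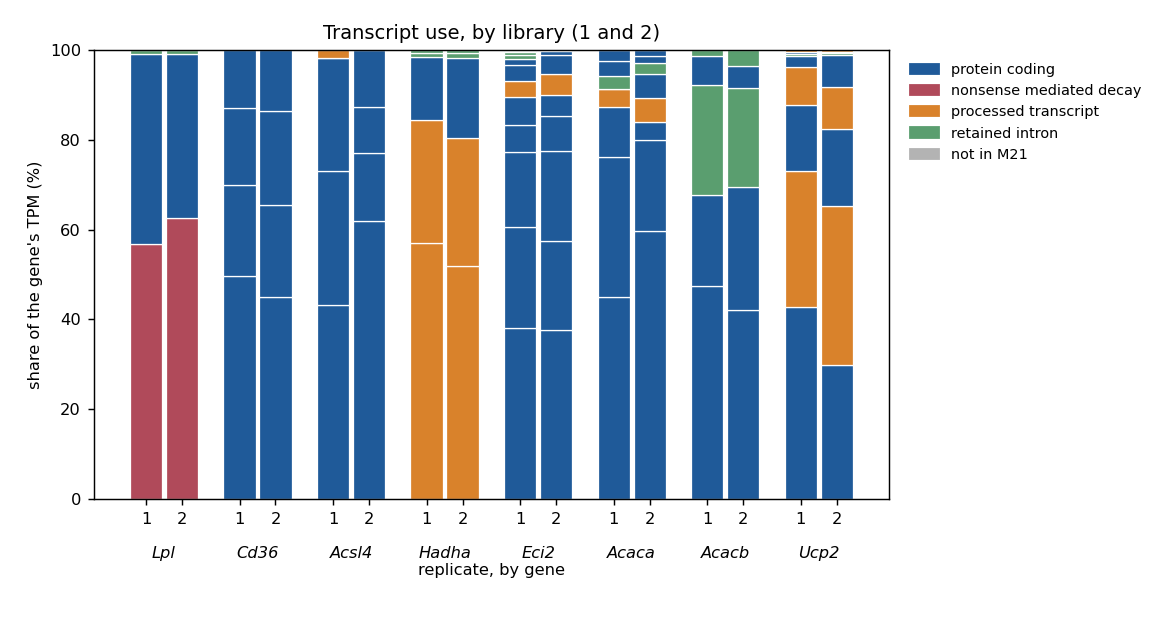
Share of each annotated transcript in the gene's TPM, in percent, for 8 genes whose leading transcript averages under 60% (Acsl6, with 21 and 27 reads, is not drawn), with 1 bar per library coloured by the transcript's type in M21. Lpl is led by a transcript marked for nonsense-mediated decay (56.7% and 62.6%) and Hadha by processed transcripts.

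The pools were compared on counts scaled by edgeR's TMM factors. Genes entered with 10 counts or more in each pool, and the limit of a call was 1.5-fold. Each pool is 1 library, so no test could be made. In bulk tissue, fewer cells of a type and less RNA per cell cannot be told apart. Of 36 genes compared, 5 were lower in replicate 2 beyond 1.5-fold (4.74% of 17029 genes were) and 1 was higher (11.2% were), so that 6 passed the limit in either direction (15.9% did). Among detected protein-coding genes 2.4% were lower and 5.33% higher, and all 6 are of that kind. Scaled by total gene counts the split was 2 lower (2.33% of all genes), Fabp4 and Fabp3, and 2 higher (15.3%), Ucp2 and Slc27a6. Scaled by spike-in counts it was 31 lower, where 76.8% of all genes were lower too, and none higher (3.24%). By TMM scaling, the genes lower in replicate 2 were Fabp4 (2.00-fold), Fabp3 (1.70-fold), Cd36 (1.61-fold), Acadm (1.57-fold) and Etfa (1.53-fold). Cd36, Acadm and Etfa did not pass the limit by total gene counts. The gene higher was Ucp2 (1.53-fold).

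The genes of mitochondrial oxidation lay on 1 side. All 15 had a log2 ratio of replicate 2 over replicate 1 below 0, from -0.65 for Acadm to -0.25 for Eci2, with a median of -0.48. The median of all genes was -0.02, and 52.1% of them were below 0. Scaled by total gene counts, where the median of all genes was 0.16 and 30.3% of them were below 0, the 15 were also below 0, with a highest value of -0.08. Spike-in scaling puts 92.6% of all genes and all 36 pathway genes below 0, so the sign there says nothing particular about the 15. Over all 36 genes compared, 27 were below 0, with a median of -0.37.

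Uptake, activation and entry genes were divided. Cd36 (-0.69), Lpl (-0.49), Cpt1b (-0.45), Acsl1 (-0.40), Acsl3 (-0.34), Acsl4 (-0.27) and Cpt2 (-0.10) lay below 0. Slc27a6 (0.54), Slc27a1 (0.29), Acsl6 (0.29, from 21 and 27 reads), Cpt1a (0.20), Acsl5 (0.16), Slc27a4 (0.15) and Cpt1c (0.06) lay above 0. Outside these steps, Ucp2 (0.61) and Acaca (0.41) lay above 0, and Mlycd (-0.10) and Acacb (-0.14) below. The paralogs Cpt1b and Cpt1a thus lay on opposite sides, though neither passed 1.5-fold.

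Cell type markers differed in direction. The 12 cardiomyocyte markers had a median log2 ratio of -0.44, with 11 of 12 below 0 and the exception of Nppa at 0.21. The 8 liver markers had a median of 2.57 and the 4 thymus markers compared a median of 3.16, with each of these above 1.5-fold. Lung epithelium markers had a median of 1.35, neural markers of 2.13 and macrophage markers of 0.38. The medians of the other resident groups were near 0, at 0.01 for endothelial, -0.03 for fibroblast, 0.02 for smooth muscle, -0.06 for erythroid and -0.12 for epicardial markers. Within these groups only Myh11 of smooth muscle (1.24) and Klf1 of erythroid cells (1.93) passed 1.5-fold, both higher in replicate 2. The part of these shifts in the ratios of the pathway genes was not tested.

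**Figure D4:**
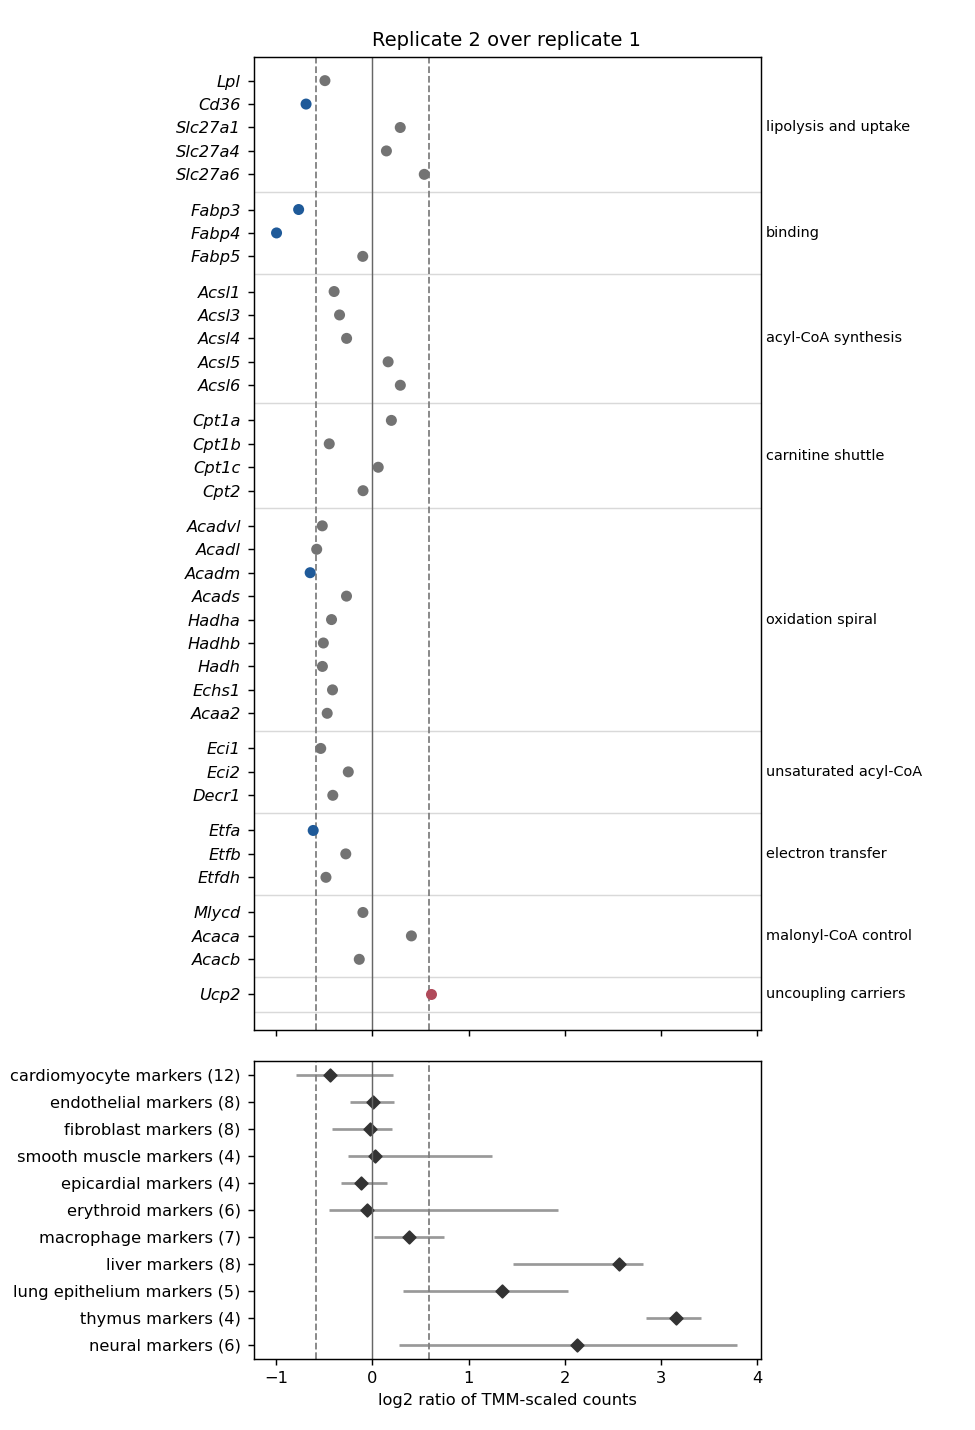
Log2 ratio of TMM-scaled counts of replicate 2 over replicate 1 for 36 genes by step (top), and the median (diamond) and range (line) of cell type markers with the number compared (bottom). Dashed lines mark 1.5-fold. The 15 genes of mitochondrial oxidation lie between -0.65 and -0.25, near the cardiomyocyte median of -0.44, while liver and thymus markers lie far to the right.

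Other genes of the pathway, taken from a list of 84, were mostly present. Of these, 71 were detected, and the median over the list was 24.3 TPM in each library. Among 77 compared, 4 were higher in replicate 2 beyond 1.5-fold (Slc27a3, Abcd2 and Scd1 among them), where 11.2% of all genes were, and 3 were lower (Plin4, Acot13 and Mcee), where 4.74% were, with a median log2 ratio of -0.12.

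By mean level, partners of lipoprotein lipase were led by Gpihbp1, its anchor on capillary endothelium, at 40.5 and 34.0 TPM. In replicate 2 Lrp1 was above it, with 25.5 TPM in replicate 1 and 35.2 TPM in replicate 2. Among other binding and transport genes, Dbi, the acyl-CoA binding protein, led at 637 and 512 TPM. Slc27a5, the liver transport protein, was lowest by mean level, at 0 and 0.13 TPM from 0 and 7 reads. Fabp2, at 0.25 and 0.08 TPM, was below it in replicate 2. Lipid droplet genes (9 of 11 detected) ran from Plin4 at 0.47 and 0.33 TPM to G0s2, the inhibitor of adipose triglyceride lipase, at 85.5 and 87.0 TPM. Of the other synthetases and thioesterases, 8 of 10 were detected, with the thioesterase Acot13 highest at 250 and 182 TPM and Acsm5 listed at 0. Among carnitine genes, Crat, carnitine acetyltransferase, led at 89.0 and 88.6 TPM, and Bbox1, of carnitine synthesis, was lowest at 0.03 and 0.17 TPM.

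All 14 genes listed as other mitochondrial oxidation, with Decr2 of the peroxisome among them, were detected. They ran from Acad10 at 1.29 and 2.02 TPM to Ech1, a dienoyl-CoA isomerase, at 195 and 186 TPM. Peroxisomal genes (8 of 9) ran from Abcd2 at 0.39 and 0.74 TPM to Scp2 at 153 and 165 TPM. In fatty acid synthesis (7 of 8) Scd2 led at 109 and 135 TPM while Scd1 stood at 0.77 and 1.47 TPM. By role, the median log2 ratio was 0.31 for these 8 genes, 0.04 for peroxisomal genes and 0.03 for ketone genes. It was -0.01 for lipase partners, -0.08 for other transporters and binding proteins, -0.16 for lipid droplet genes and -0.20 for carnitine genes. The remaining medians were -0.21 for other synthetases and thioesterases, -0.25 for the 14 genes listed as other mitochondrial oxidation and -0.29 for regulators. All of those 14 were below 0 by TMM scaling, from -0.68 to -0.01, where 52.1% of all genes were. Scaling by total gene counts shifts every ratio by 0.17, so those nearest 0, Acad10 and Acad11 among them, are then above 0. No difference between roles was tested. Ketone genes (4 of 4) were led by Oxct1, the enzyme that activates acetoacetate, at 326 and 239 TPM, with Bdh1 lowest at 6.75 and 8.79 TPM. Of 8 regulators, Ppargc1a, the coactivator PGC-1alpha, was highest at 53.5 and 45.1 TPM and Ppard lowest at 0.93 and 1.12 TPM.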

How the data were processed

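Both libraries of the 1 group were analysed. Per the labels, the input was 10 ng of RNA above 200 nt. The genome is mm10 and the annotation GENCODE M4, per the file headers; no source used here gives the aligner or quantifier. In the deposited files, expected counts are not normalized, and reads that fit several features are split between them. The deposited TPM are per effective length and sum to the same total in each library, spike-ins included. The deposited percent is a transcript's share of its gene's TPM.

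Identifiers were matched to GENCODE M21 on the same build (42462 of 43346 Ensembl genes). The 26248 rows with numeric identifiers held 0.000102% and 0.000161% of counts and stayed out of the scaling, as did 97 spike-ins. Library ratios used expected counts, rounded for the TMM factors (edgeR 4.0.16, R 4.3.3) and tested on simulated data. Log2 ratios between genes used TPM + 0.1. Alternatives were posterior mean TPM, raw counts, protein-coding transcripts, DESeq2 1.42.0 size factors, total and spike-in scaling, other thresholds and pseudocounts, and each library alone. Wilson intervals cover counting error only.

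All 37 genes are named; from the list of other pathway genes, the highest and lowest of each role. A gene of that list is not reported here. The genes and lists were chosen with earlier results of these data known. The motifs, the printed sequences and the 21 pairs of genes set in ratio were chosen after values were seen. So were the genes outside that rule (Chkb, Zdhhc6, Dvl2, Nppa, Decr2, Lrp1, Fabp2, Myh11, Klf1, and list genes beyond 1.5-fold).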

Additional observations from a re-analysis of the deposited data

How the results depend on the processing

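No paired analysis was possible because the samples form 1 group. The number detected (35) stayed within 1.5 times under posterior mean TPM, other detection levels and either library alone, and the median of 109 TPM was 104 to 108 TPM in single libraries. Raw counts in place of TPM moved the leading share to 40.5% for Slc27a1 (46.9% in TPM), 58.6% for Fabp3, 36.7% for Acsl3, 77.2% for Cpt1b, 57.7% for Hadhb, 59.1% for Eci1, 50.8% for Etfb and 71.2% for Acacb. Protein-coding transcripts alone gave 40.01% for Acsl3, 56.2% for Acadl, 89.9% for Hadhb and 58.4% for Acacb, with M21 types. Directions turned for Slc27a1/Slc27a4 (log2 ratio 0.27, -0.26 in raw counts), Mlycd/Acacb (0.77, -1.10 in raw counts, which are not per length) and Lpl/Cd36 (0.46, -0.88 with protein-coding transcripts); the other 123 of 126 ratio values kept theirs. Genes higher in replicate 2 numbered 2 by total gene counts, 0 by spike-ins and 3 beyond a log2 ratio of 0.32; those lower numbered 2, 31 and 19, where 2.33%, 76.8% and 16.2% of all genes were lower and 15.3%, 3.24% and 18.9% higher. The median log2 ratio was -0.20 by total gene counts, which shifts every ratio by 0.17, and -1.20 by spike-ins, which shifts it by -0.83. Genes with a divided or noncoding leading transcript numbered 9, and 10 with posterior mean estimates. The cause of these moves was not tested beyond the constant shift that a scaling makes. Depth limits Acsl6 and Ucp3.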
